A study of Mus musculus with 6 samples.

Results

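The 53 genes described here encode voltage- and calcium-gated potassium channels and their close partners. They are the protein-coding genes of the deposited table whose symbols name a pore-forming Kv, EAG, BK, SK or sodium-activated subunit, a silent Kv subunit, a cytoplasmic Kv beta or KChIP subunit, or a membrane-spanning BK beta subunit. The rule took 53 of 45703 genes, or of 21843 protein-coding genes, by symbol and biotype; the Kcnq, Kcnj and Kcnk families lie outside it. The samples were 6 replicate primary cell cultures from dorsal root ganglia, the clusters of sensory neurons and glia beside the spinal cord, of wild-type C57BL/6 mice aged 4 to 6 weeks. All were handled alike: Liberase enzymes freed the cells, which grew on a poly-L-lysine coat over 7 days in vitro, in medium holding 10% fetal calf serum and the growth factors EGF and FGF, 10 ng/ml. RNA of each sample came from 2 dishes, and all 6 samples form a single group, so that the data answer which channel genes were transcribed in these cultures and how much they varied, and compare no conditions. The series text calls the samples biological replicates without saying how many mice each came from. Such a culture is a mixture grown in serum and growth factors, and it is not the ganglion itself.

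Voltage-gated potassium channels open when the membrane is depolarised and end or shorten the action potential, and calcium-gated channels add a potassium current after calcium entry. A Kv channel is a tetramer of alpha subunits, Kv1 tetramers may mix members of their family, and silent subunits join tetramers of Kv2 subunits. In peripheral nerve, Kcna1 and Kcna2 are best known from the axon membrane beneath the myelin beside the nodes of Ranvier, and Kv currents are also known in cultured Schwann cells. Kcnd channels carry the fast A-type current, Kcnma1 the large-conductance BK current and Kcnh2 the channel known in the heart as hERG. Kcnn4 encodes the intermediate-conductance calcium-gated channel, which is known from red cells, lymphocytes and other cells that do not fire action potentials.

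Library totals lay between 20070639 and 22968642 counts, so that 1 CPM (1 count per 1000000 of the library total) stood for at least 20.1 counts. Levels within a gene are given in CPM, and levels between genes in CPM per kilobase (kb) of the combined exon length in the deposited table. The marker lists showed what the cultures held: all 13 neuron markers and all 7 glial lineage markers reached 1 CPM in every library, with summed levels of 1073 to 2328 CPM and 4451 to 6532 CPM. The fibroblast list was present too (6 of 6 markers, 3338 to 13967 CPM), as were mural (6 of 7 markers, 274 to 1543 CPM), macrophage (5 of 7, 15.1 to 149 CPM) and endothelial markers (2 of 5, 8.71 to 120 CPM). Muscle markers, used as background, summed to at most 0.764 CPM. In such bulk samples, fewer cells of a type and less RNA per cell cannot be told apart.

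Of the 53 channel genes, 30 reached 1 CPM in all 6 libraries (56.6%), against 55.8% of protein-coding genes. A further 4 genes, Kcna7, Kcnd2, Kcnv2 and Kcnmb3, stayed at or under 3 counts in every library, which was taken as the detection floor. The remaining 19 lay between. Only 4 genes averaged more than 100 CPM, namely Kcna1, Kcna2, Kcna6 and Kcnh2, and 18 averaged more than 10 CPM. The 53 genes together took 0.274% ± 0.0420 of all counts (SD, n = 6), and Kcna1, Kcna2 and Kcna6 alone took 0.222% ± 0.0363.

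The Kv1 alpha subunits Kcna1, Kcna2 and Kcna6 dominated the channel transcripts. On the per-kb scale these 3 genes held 71.8% ± 2.55 of the summed level of all 53 genes (SD, n = 6), with a lowest share of 68.2% and a highest of 75.2%. Within the Kv1 family they held 99.3% ± 0.156 of the summed level, shared out as 49.3% ± 3.48 for Kcna6, 27.3% ± 2.55 for Kcna2 and 22.7% ± 1.88 for Kcna1.

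Kcna6 (chromosome 6, 126708328 to 126740834, minus strand, GRCm38.p6) was counted at a lowest, median and highest level of 515, 760 and 967 CPM. Its mean of 123 ± 27.97 CPM per kb (SD, n = 6) placed it at rank 377 of 21843 protein-coding genes. Kcna2 (chromosome 3, 107090883 to 107115005, plus strand) was counted at 743, 991 and 1167 CPM, and averaged 66.9 ± 10.2 CPM per kb. Replicate 5 gave the lowest value of both genes. Kcna1 (chromosome 6, 126636463 to 126645801, minus strand) was counted at 397, 521 and 577 CPM, again lowest in replicate 5, and averaged 55.9 ± 8.98 CPM per kb. For scale, the glial gene Erbb3, a neuregulin receptor, averaged 125 ± 20.1 CPM per kb, and the neuronal intermediate filament gene Prph 76.4 ± 24.7 CPM per kb. The order Kcna6, Kcna2, Kcna1 held per kb in all 6 libraries. In CPM, Kcna2 was above Kcna6 in all 6, so the order of these 2 genes rests on their exon lengths of 6.22 kb for Kcna6 and 14.35 kb for Kcna2. Kcna1 lay below Kcna2 in all 6 libraries (mean difference -0.26 ± 0.166 in log2 CPM per kb, SD, n = 6; two-sided exact sign-flip permutation p = 0.0312, the smallest that 6 libraries allow; adjusted p = 0.0430 over 11 pairs of genes, 9 of which are described here). In CPM this difference was -0.94, with the same call.

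The other Kv1 genes were low, including the neighbours of the 3 abundant ones. Kcna5 lies 101 kb from Kcna1 on chromosome 6, with Kcna6 62.5 kb beyond Kcna1, and was counted at 1.19, 2.06 and 2.22 CPM. On chromosome 3, Kcna3 ends 52.8 kb before Kcna2 and had 0.548, 0.895 and 1.83 CPM, with at least 1 CPM in 2 of 6 libraries. Kcna10, which starts 68.1 kb after Kcna2, had at most 5 counts. The A-type subunit Kcna4, on chromosome 2, had 10.2, 15.2 and 31.3 CPM, highest in replicate 1, but spread over a combined exon length of 33.5 kb it came to 0.526 ± 0.227 CPM per kb (SD, n = 6).

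Promoters are shown for abundant and scarce Kv1 genes from the same 2 chromosome neighbourhoods, since the genes in each stand next to each other and their levels differed widely. RefSeq sequences on GRCm38.p6 matched 39 of the 53 genes. Kcna1 was not among them, so Kcna2 and Kcna6 are the only abundant Kv1 genes shown. Each sequence runs 5′ to 3′ on the gene's strand, from 250 bases before to 50 bases after an annotated start, and capitals mark matches on either strand to GGGCGG (GC box) or ACAAAG (SOX-type core). The regions are chr3:107101317-107101616 (plus strand) for Kcna2, chr6:126740625-126740924 (minus) for Kcna6, chr3:107035912-107036211 (plus) for Kcna3, chr3:107182893-107183192 (plus) for Kcna10 and chr6:126535506-126535805 (minus) for Kcna5. The start used for Kcna2 lies 10684 bases inside the gene span of the deposited table, and that of Kcna6 160 bases inside it.
Kcna2: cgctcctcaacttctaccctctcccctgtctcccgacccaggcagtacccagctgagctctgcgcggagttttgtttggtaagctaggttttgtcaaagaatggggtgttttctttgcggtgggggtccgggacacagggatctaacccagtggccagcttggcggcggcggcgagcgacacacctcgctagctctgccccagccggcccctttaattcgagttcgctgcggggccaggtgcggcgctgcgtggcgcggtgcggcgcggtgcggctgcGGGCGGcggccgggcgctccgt
Kcna6: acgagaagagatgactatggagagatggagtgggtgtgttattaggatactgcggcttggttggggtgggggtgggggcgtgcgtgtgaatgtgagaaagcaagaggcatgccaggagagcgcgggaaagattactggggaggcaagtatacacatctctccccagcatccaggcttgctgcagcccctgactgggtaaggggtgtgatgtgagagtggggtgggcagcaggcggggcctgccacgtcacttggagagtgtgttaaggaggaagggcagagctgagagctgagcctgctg
Kcna3: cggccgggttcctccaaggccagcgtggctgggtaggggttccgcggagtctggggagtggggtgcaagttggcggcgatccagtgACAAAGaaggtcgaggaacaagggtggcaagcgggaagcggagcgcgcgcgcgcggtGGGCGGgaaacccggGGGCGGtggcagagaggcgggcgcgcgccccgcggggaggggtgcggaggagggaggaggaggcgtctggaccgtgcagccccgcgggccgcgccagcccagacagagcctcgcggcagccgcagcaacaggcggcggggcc
Kcna10: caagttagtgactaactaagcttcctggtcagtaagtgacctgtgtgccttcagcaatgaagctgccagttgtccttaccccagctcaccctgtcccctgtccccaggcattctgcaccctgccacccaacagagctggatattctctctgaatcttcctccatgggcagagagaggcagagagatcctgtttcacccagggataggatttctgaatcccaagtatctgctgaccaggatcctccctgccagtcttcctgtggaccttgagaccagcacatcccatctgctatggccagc
Kcna5: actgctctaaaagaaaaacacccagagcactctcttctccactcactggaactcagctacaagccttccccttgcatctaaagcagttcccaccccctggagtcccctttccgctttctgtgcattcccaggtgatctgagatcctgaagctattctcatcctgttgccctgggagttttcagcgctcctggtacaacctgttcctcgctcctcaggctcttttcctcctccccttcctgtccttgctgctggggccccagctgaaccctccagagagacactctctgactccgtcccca

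The CpG content of these 5 promoters, without that of Kcna1, did not follow the levels of the genes. Kcna2 had 31 CpG dinucleotides in 300 bases and Kcna3 had 37, whereas Kcna6 had 8, Kcna5 4 and Kcna10 0. GGGCGG was found once in Kcna2 and at 2 places in Kcna3, and not in the windows of Kcna6, Kcna10 and Kcna5. Over all promoters, 35.7% of 32851 held GGGCGG, against 23 of the 39 channel genes with a sequence (59.0%). The channel promoters were also richer in G and C, with a median of 62.67% against 52.67%, whose part in the GGGCGG share was not tested. The background counts every listed promoter, but each channel gene only the start nearest its own, which for Kcnip4 lay 239463 bases away. ACAAAG was in Kcna3 alone of these 5, in 5 of the 39 channel genes (12.8%) and in 18.7% of all promoters. ACAATG was found in 1 of the 39, and TATAAA and the cAMP response element TGACGTCA in 0 of the 39, against 12.6%, 13.6% and 1.79% of all promoters. The part of G and C content in these shares was not tested either. The searches covered both strands, and a match is a string of letters and not a measured binding site.

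**Figure D1:**
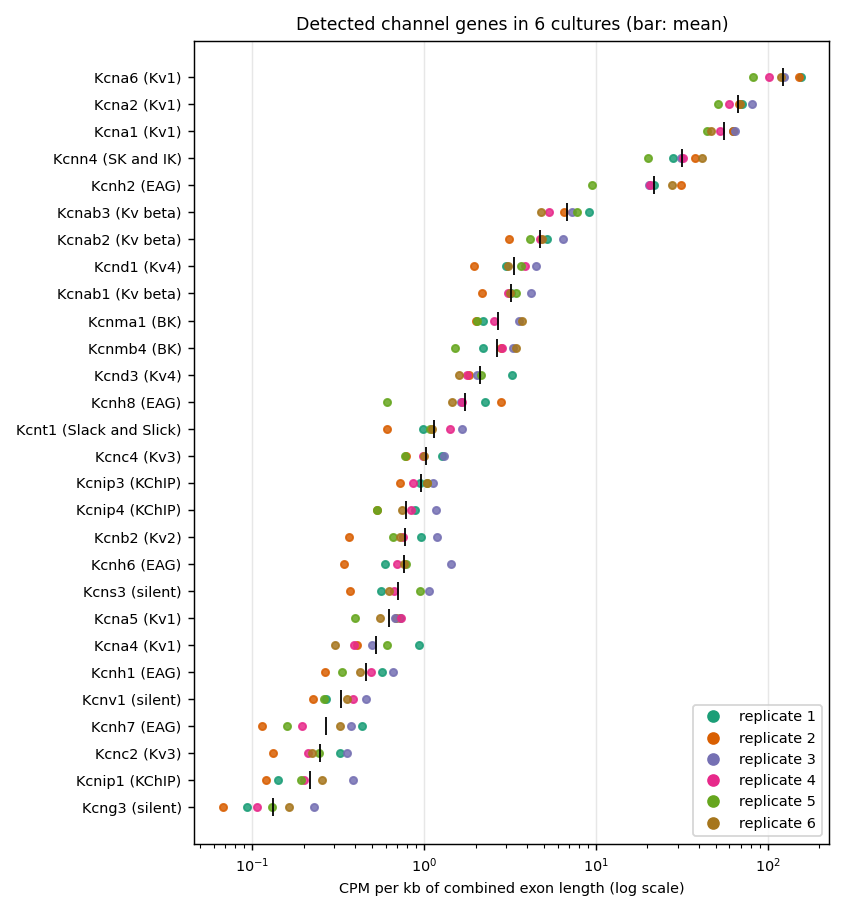
Level of 28 of the 30 channel genes that reached 1 CPM in every library, in CPM per kb of combined exon length on a log axis. Each point is 1 culture, coloured by replicate, and the black bar is the mean; Kcna6, Kcna2 and Kcna1 stand at 55.9 to 123 CPM per kb on average and most other genes below 10.

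The next highest genes were Kcnn4 and Kcnh2. Kcnn4 (chromosome 7, 24369826 to 24385212) was counted at 49.97, 79.0 and 103 CPM, lowest in replicate 5 and highest in replicate 6. Its 31.98 ± 7.55 CPM per kb (SD, n = 6) was below Kcna1 in all 6 libraries. The small-conductance SK genes of its family were near the limit: Kcnn1 had 0.908, 1.71 and 2.22 CPM, Kcnn2 0.430, 0.989 and 2.34 CPM, and Kcnn3 0.430, 1.19 and 1.26 CPM. Kcnn2 and Kcnn3, both modulators of afterhyperpolarisation, differed by 0.53 ± 0.794 (log2 CPM per kb, SD, n = 6), within the spread between cultures (exact sign-flip permutation p = 0.156, adjusted 0.156). Replicate 6 held the highest Kcnn2 and the lowest Kcnn3 value, and without it the difference was 0.24. It was 0.14 with a pseudocount of 1 and 0.063 in CPM.

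Kcnh2 (chromosome 5, 24319589 to 24351684), the EAG family member called hERG, had 48.8, 110.3 and 161 CPM, with replicate 5 far below the others. It averaged 21.9 ± 7.49 CPM per kb (SD, n = 6) and was below Kcnn4 on that scale in all 6 libraries. In CPM it was above Kcnn4 in 5 of 6, so this order too rests on the exon lengths, of 5.16 kb for Kcnh2 and 2.47 kb for Kcnn4. Kcnh8 followed in the family with 2.63, 7.09 and 12.02 CPM, also lowest in replicate 5. Kcnh1 had 2.37, 4.08 and 5.91 CPM, and lay below Kcnh2 in all 6 libraries (mean difference -5.26 ± 0.712 in log2 CPM per kb, SD, n = 6; exact sign-flip permutation p = 0.0312, adjusted 0.0430). Kcnh6 and Kcnh7, the other erg-type genes, averaged 6.98 and 4.42 CPM. Kcnh6 counts were fractional in all 6 libraries, and Kcnh7 overlaps Gca on the other strand, so both are less certain. Kcnh3, Kcnh4 and Kcnh5 were below 1 CPM in every library.

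The Kv beta subunits, oxidoreductase-like proteins that bind the cytoplasmic face of Kv1 channels, were all detected. Kcnab2 (chromosome 4, 152390744 to 152477549) had 30.2, 46.9 and 63.1 CPM, lowest in replicate 2 and highest in replicate 3. Kcnab3 had 12.2, 17.5 and 23.1 CPM, but with its shorter exons it came first per kb, at 6.81 ± 1.58 against 4.77 ± 1.12 CPM per kb for Kcnab2 (SD, n = 6), in 5 of 6 libraries. Kcnab1, whose product confers fast inactivation, had 10.0, 14.8 and 19.3 CPM. It lay below Kcnab2 in all 6 libraries (mean difference -0.54 ± 0.148, log2 CPM per kb, SD, n = 6; exact sign-flip permutation p = 0.0312, adjusted 0.0430). In CPM the difference was -1.63, with the same call. The summed Kv beta level was 14.8 ± 2.54 CPM per kb, and the summed Kv1 alpha level 247 ± 43.6 CPM per kb.

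**Figure D2:**
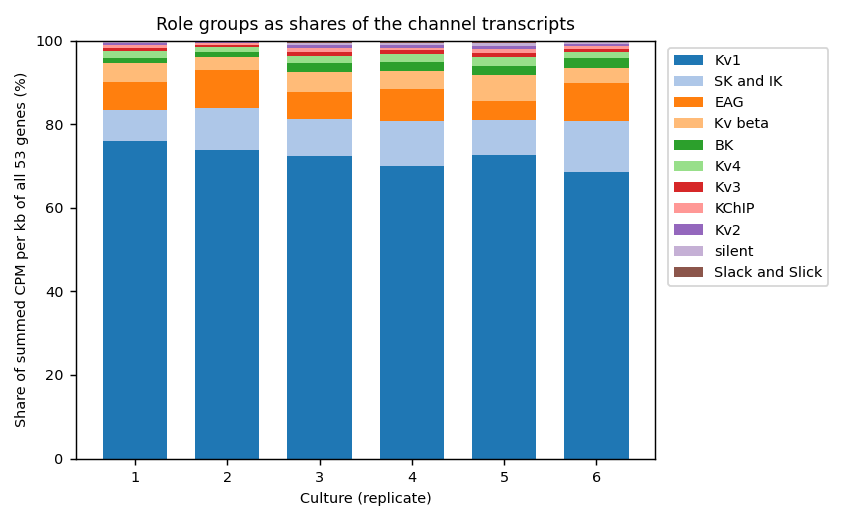
Share of each role group in the summed CPM per kb of all 53 genes, as stacked bars from 0 to 100%, for each of the 6 cultures. The Kv1 group takes 68.6% to 75.9% in the 6 cultures, followed by the SK and IK group (7.48% to 12.2%) and the EAG group (4.62% to 9.02%).

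Genes of the delayed-rectifier Kv2 and high-threshold Kv3 families were present at low levels. The Kv2 subunit Kcnb2 had 6.15, 12.4 and 19.96 CPM, lowest in replicate 2 and highest in replicate 3. The Kv3 subunit Kcnc4 had 6.497, 8.37 and 11.1 CPM, lowest in replicate 5 and highest in replicate 3. Kcnc2 and Kcnc1, Kv3 subunits of fast-firing neurons, averaged 3.86 and 2.29 CPM.

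Among the Kv4 genes of the A-type current, Kcnd1 and Kcnd3 were counted and Kcnd2 was not. Kcnd1 (chromosome X, 7823759 to 7838278) had 7.51, 13.0 and 17.2 CPM, and Kcnd3 (chromosome 3, 105451890 to 105674002) 12.6, 15.2 and 25.5 CPM, highest in replicate 1. Kcnd2 had 0 or 1 counts in each library. Against a floor of 3 counts for Kcnd2 in each library, Kcnd3 was at least 59.6-fold higher per kb in every culture. That bound already fixes the sign in all 6 libraries. The pair's test (exact sign-flip permutation p = 0.0312, adjusted 0.0430, n = 6) therefore adds nothing to it. The calcium-binding KChIP subunits of Kv4 channels were led by Kcnip3 (6.92, 9.47 and 10.8 CPM) and Kcnip4 (12.1, 18.0 and 26.7 CPM). Per kb, Kcnip3 exceeded Kcnip4 by 0.29 ± 0.332, within the spread (log2 scale, SD over n = 6 cultures; exact permutation p by sign flips 0.0938, adjusted 0.103). In CPM the order turned, to -0.92 (adjusted p = 0.0430 by the same exact test), so the order of these genes rests on their annotated lengths of 9.50 and 22.7 kb. The per-kb difference was 0.18 without replicate 5 and 0.14 with a pseudocount of 1. Kcnip1 averaged 1.88 CPM and Kcnip2 0.853 CPM.

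The BK alpha gene Kcnma1 (chromosome 14, 23292288 to 24005110) had 32.7, 38.7 and 60.4 CPM, highest in replicate 6, and fractional counts in 3 libraries. Its neuronal beta subunit Kcnmb4 had 8.36, 15.6 and 18.9 CPM, and per kb it averaged 2.68 ± 0.717 against 2.69 ± 0.775 for the alpha gene, which was the higher in 4 of 6 libraries (CPM per kb, SD, n = 6). Kcnmb1, the beta subunit of smooth muscle, had 0.958, 3.94 and 5.83 CPM, lowest in replicate 1 and highest in replicate 5. It lay below Kcnmb4 in all 6 libraries (mean difference -1.82 ± 1.07, log2 CPM per kb, SD, n = 6; exact sign-flip permutation p = 0.0312, adjusted 0.0430). With a pseudocount of 1 it was -1.06, with the same call. Kcnmb2 was below 1 CPM in every library. Kcnmb1 lies inside the span of Kcnip1 on the other strand. The mural score, too, was lowest in replicate 1 (1.23) and highest in replicate 5 (3.88). The same held for the fibroblast, macrophage and endothelial scores. In the fit on the fibroblast score described below, Kcnmb1 had a slope of 0.66 and was not called (edgeR adjusted p = 0.213). No fit was run on the mural, macrophage and endothelial scores. The separate parts of these cells in the Kcnmb1 values cannot be told apart and were not tested.

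Of the sodium-activated channels, Kcnt1 (Slack), known in sensory neurons, had 5.46, 9.82 and 15.0 CPM, highest in replicate 3. Kcnt2 (Slick) had 0.958, 2.12 and 4.11 CPM, lowest in replicate 1 and highest in replicate 5. Kcnt1 exceeded Kcnt2 by 1.83 ± 0.531 (log2 CPM per kb, SD, n = 6; exact sign-flip permutation p = 0.0312, adjusted 0.0430). With a pseudocount of 1 in place of 0.1 the difference was 0.76, with the same call. Silent subunits, which form no channel of their own, were scarce: 3 of 10 reached 1 CPM in every library. Kcns3 had 1.41, 2.48 and 4.06 CPM, Kcnv1 3.37, 4.68 and 6.92 CPM, and Kcng3 averaged 2.04 CPM. Kcns1, a silent subunit of myelinated sensory neurons, had at most 7 counts and lay below Kcns3 in all 6 libraries (mean difference -2.41 ± 0.555, log2 CPM per kb, SD, n = 6; exact sign-flip permutation p = 0.0312, adjusted 0.0430). So near the floor the pseudocount and scale set the size of the difference, which was -0.69 with a pseudocount of 1 and -3.58 in CPM, with the same call. Kcnf1, Kcng1, Kcng2, Kcng4 and Kcns2 were below 1 CPM in every library.

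**Figure D3:**
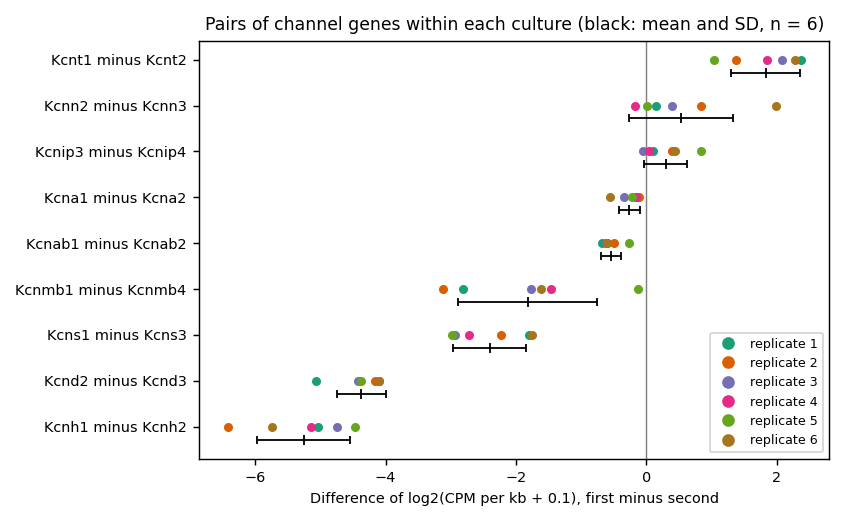
Within-culture difference of log2(CPM per kb + 0.1) for 9 pairs of channel genes, first minus second. Coloured points are the 6 cultures and black marks the mean and SD; 7 pairs have all 6 points on the same side of 0, and the pairs Kcnip3 with Kcnip4 and Kcnn2 with Kcnn3 have 5.

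The 6 cultures differed in most of these genes. The coefficient of variation of CPM over the 6 cultures had a median of 28.8% over the 37 channel genes that passed the filter on low counts, from 15.2% for Kcna2 to 58.6% for Kcnmb1, against a median of 12.1% over all 14998 genes tested. The channel genes were also counted lower, with a median of mean levels of 9.14 CPM against 23.5 CPM, and counting error is part of this coefficient. A chi-square test of the counts, adjusted by Benjamini-Hochberg over all genes, found variation beyond counting noise in 35 of the 37 (94.6%), against 76.3% of all genes; the exceptions were Kcna5 and Kcnmb2. The test sets separate cultures against counting noise alone, and most genes passed it. Of the 30 detected genes, 18 had their highest value in replicate 3 and 18 their lowest in replicate 2, while 9, among them Kcna1, Kcna2, Kcna6, Kcnn4 and Kcnh2, were lowest in replicate 5. Of 12181 protein-coding genes detected by the same rule, 20.9% were highest in replicate 3, 17.6% lowest in replicate 2 and 27.5% lowest in replicate 5. The neuron score, the mean log2 CPM per kb of the 13 neuron markers, was 4.81 in replicate 3, 3.87 in replicate 2 and 3.75 in replicate 5.

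No channel gene passed the test of association with the neuron score. The slope, the log2 change in a gene per unit of score, was positive for 34 of 37 genes with a median of 0.42, whereas over all 14998 genes the median was -0.0013 and 49.8% were positive; these are descriptions of slopes from the same 6 cultures, not tests of the group. With edgeR's quasi-likelihood test and Benjamini-Hochberg adjustment over all genes, 0 of the 37 passed in either direction, against 0.2% of all genes upward and 0% downward. At an unadjusted edgeR p under 0.05 there were 10 of 37, against 11.0% of all genes. The lowest edgeR p-values belonged to Kcnip4 (slope 1.03, adjusted p = 0.0711), Kcnab2 (slope 0.74, adjusted p = 0.182) and Kcnc4 (slope 0.77, adjusted p = 0.182), and the steepest slope was that of Kcnh7 (1.69, adjusted p = 0.207). DESeq2 called these 4 genes and no other channel gene (10.8% of 37, against 2.45% of all genes in either direction), with adjusted p from 5.16e-05 for Kcnip4 to 0.0456 for Kcnc4. The abundant Kv1 genes had lower slopes, of 0.22 for Kcna1, 0.41 for Kcna2 and 0.24 for Kcna6, with edgeR adjusted p of 0.777, 0.492 and 0.852.

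The fibroblast score ranged from 4.50 in replicate 1 to 7.52 in replicate 5. Kcnt2 rose with it, by 0.67 on the log2 scale per unit of score (edgeR adjusted p = 0.0331), and Kcna6 fell by 0.31 per unit (edgeR adjusted p = 0.0466). These were 1 of 37 genes in each direction (2.7%), against 4.75% of all genes upward and 1.03% downward, so the shares were near the background. Both calls rested on the full set of libraries: the Kcnt2 call was kept only without replicate 3 and the Kcna6 call only without replicate 2, with edgeR adjusted p from 0.0101 to 0.339 and from 0.0167 to 0.439 over the fits that left out a single replicate. Without replicate 2, Kcnh7 passed as well, downward (edgeR adjusted p = 0.0360), so that 5.41% of channel genes and 5.43% of all genes passed there. Without replicates 1 and 5, the extremes of the score, neither Kcnt2 nor Kcna6 passed, and the fit called 0 genes in all. DESeq2 on all 6 libraries called Kcnt2 and Kcna6, and Kcna2 in addition (adjusted p = 0.0411), 8.11% of the 37 against 11.3% of all genes in either direction. Over the single-replicate fits the slopes of Kcnt2 and Kcna6 kept their sign, at 0.64 to 0.72 and -0.36 to -0.26. The mural (1.23 to 3.88), macrophage (-0.13 to 2.72) and endothelial scores (-1.46 to 1.28) also ran from a lowest value in replicate 1 to a highest in replicate 5, and the glial lineage score was lowest in replicate 5 (6.76, against 7.06 to 7.25 elsewhere); the part of these cells in the slopes was not tested. Kcna2 and Kcna1 had fibroblast slopes of -0.18 and -0.16 (edgeR adjusted p = 0.147 and 0.235).

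**Figure D4:**
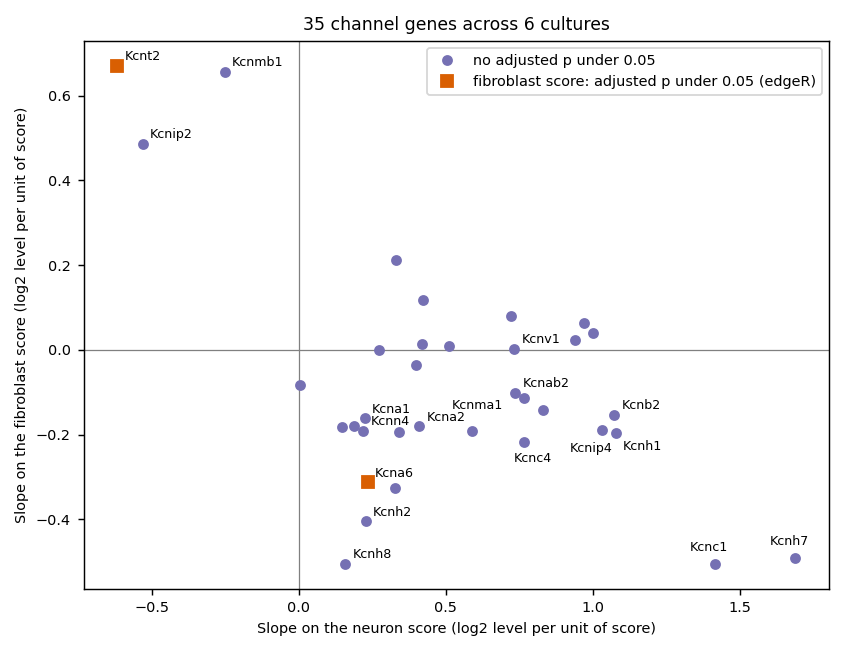
Slope of 35 of the 37 channel genes on the neuron score (horizontal) and on the fibroblast score (vertical), both in log2 level per unit of score across 6 cultures. Points to the right of 0 number 32 of the 35 shown; squares are Kcnt2 and Kcna6, whose fibroblast slopes had an edgeR adjusted p under 0.05.

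A fit on the glial lineage score was added after the levels of the Kv1 genes had been seen. It called 0 channel genes and 0% of all genes by edgeR in either direction, with 11 of 37 channel genes and 21.9% of all genes at an unadjusted p under 0.05. Without replicate 1, edgeR called 447 of 15235 genes (2.93%) and again 0 channel genes. Slopes ran from -3.41 for Kcnmb1 to 4.04 for Kcnh8, with edgeR adjusted p of 0.280 and 0.0880, and Kcnc1 had 3.23 (edgeR adjusted p = 0.135). The 5 genes of highest level per kb all had positive slopes, of 1.80 for Kcna6, 1.15 for Kcna2, 1.16 for Kcna1, 1.58 for Kcnn4 and 3.06 for Kcnh2, with edgeR adjusted p of 0.0981, 0.110, 0.123, 0.194 and 0.0987. The glial score itself spanned a narrow range, and replicate 5 was its lowest value and also the lowest value of these 5 genes. The median slope was 0.48 over the 37 genes and 0.046 over all genes.

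Partner proteins of these channels were taken from a list of 23 genes, of which 22 were in the table, 12 reached 1 CPM in every library and 6 were at or under 3 counts. The scaffold genes Dlg1 and Dlg4, whose PDZ domains bind Kv1 tails, averaged 168 ± 14.6 and 77.0 ± 3.46 CPM (SD, n = 6). The adhesion genes Cntn2 and Cntnap2, which hold Kv1 channels beside the node, averaged 32.8 ± 12.1 and 13.4 ± 4.82 CPM. The Kv4 partner Dpp6 averaged 27.8 ± 9.25 CPM, and the Kv2 partner Amigo1 33.1 ± 4.96 CPM. Of the 4 BK gamma genes, Lrrc55 averaged 1.14 ± 0.731 CPM (SD, n = 6), and Lrrc26, Lrrc38 and Lrrc52 had no library above 3 counts. Of the 14 partner genes tested, 1, Dpp6, rose with the neuron score (slope 1.14, edgeR adjusted p = 0.0426), against 0.2% of all genes. The call was lost whichever single replicate was left out (edgeR adjusted p = 0.118 to 0.513), but those fits called 0 genes in all. Over them the Dpp6 slope was 1.08 to 1.21. Kcne4, a small membrane subunit, had a lowest, median and highest level of 0.478, 1.17 and 5.68 CPM. It rose with the fibroblast score (slope 1.29, edgeR adjusted p = 0.0110), as 1 of the 14, against 4.75% of all genes. Among the fits that left out a single replicate, Kcne4 lost the call only without replicate 5 (edgeR adjusted p = 0.285). Nor did it pass without replicates 1 and 5, where the fit called 0 genes in all. None of the 14 fell with either score.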

How the data were processed

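RNA was sequenced from 6 dorsal root ganglion cultures. The deposited values are estimated counts per gene, with no scaling by the authors; 13.4% to 14.7% of values in a library were not whole. Per the submitters' processing notes, bcl2fastq 2.20.0.422, cutadapt 2.5, STAR 2.7.2b, featureCounts 1.6.4 and GRCm38.p6 were used; the settings for strand and multi-matching reads are not given in the sources used here. The kit keeps strand per the labels' protocols, but 10 of the 53 genes (among them Kcnab2, Kcnh3, Kcnh7, Kcnip1, Kcnip4, Kcnmb1, Kcnmb3, Kcnmb4 and Kcnn2) overlap a gene on the other strand with over 10 counts, and 17 had a fractional count, so their levels are less certain. All 53 start positions matched RefSeq on GRCm38.p6.

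CPM used library totals. In R 4.3.3, counts were rounded, tested with edgeR 4.0.16 or, as an alternative, DESeq2 1.42.0, filtered with filterByExpr (14998 genes, 37 of the 53), and scaled by TMM factors. Scores were means of log2(CPM per kb + 0.1) over a marker list. Fits ran on all genes, with Benjamini-Hochberg adjustment at 0.05; the pairs used exact sign flips over 64 patterns. The p-values of the score fits and pairs measure the spread between these samples, and those of the chi-square test use counting noise alone. On simulated data of 14998 genes, the chi-square test recovered 96 of 100 genes changed 2-fold. The neuron score fit recovered 36 of 100 genes with a slope of 1 and 92 of 100 with a slope of 2. They called 12 and 10 unchanged genes as well. The counts simulated for the chi-square test held counting noise and the changes made, and no other spread between cultures, unlike the real counts. Those simulated for the score fit took each gene's spread from the trend over expression level, with no spread particular to the gene. The score values that made the slopes were also the ones fitted, so recovery in the real data may differ. The rule for the genes reads symbols and biotypes, but the set of genes, the lists and the pairs were chosen with earlier results of these data known. Values are given for the 2 highest genes of each role group, the paired genes and the called genes. The values of 2 genes, and 2 pairs that hold them, are not reported here; both genes stay in the fits, counts, shares and adjusted p-values. Alternatives covered scaling, filters, pseudocounts, DESeq2, list medians, left-out replicates and, unplanned, the neuron and fibroblast scores in 1 model. On the neuron score that model called 0 of 37 channel genes and 95 of 14998 genes by edgeR. On the fibroblast score it called 3 of 37 and 806 of 14998. The 3 included Kcnt2 and Kcna6 (edgeR adjusted p = 0.0220 and 0.0386).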

Additional observations from a re-analysis of the deposited data

Results flagged for a closer look

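For 37 measures, 28 levels and 9 pair differences, the distance from the most extreme culture to the closest other one was taken as a share of the whole range. Dixon's critical value for 6 samples was passed in 2 of them, and chance passes it in about 1 in 20, or 1.85 of 37. The Kcnd3 level stood apart in replicate 1, at 25.5 CPM against a next highest 16.9 CPM and a lowest 12.6 CPM (share 0.668). The difference of Kcnd2 and Kcnd3 stood apart in the same library (-5.07 against a nearest -4.42 in log2 CPM per kb, share 0.665), with Kcnd2 at the floor throughout. This difference therefore restates the Kcnd3 level, and the 2 passes are not independent.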

How the results depend on the processing

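Of 52 alternative values for the counts that answer a comparison, 43 kept within 1.5 times the main count and 9 moved. On genes with whole counts in every library, 21 of 22 channel genes varied beyond counting noise, against 35 of 37; fewer genes were tested. DESeq2 in place of edgeR gave 4 channel genes on the neuron score in place of 0, and 368 of all genes in place of 30; the median of the fibroblast list gave 1 gene in place of 2; the causes were not tested. Without the 2 libraries farthest from the median fibroblast score, replicates 1 and 5, the fit called 0 channel genes and 0 genes in all, with fewer samples. Leaving out single replicates gave 30 to 32 detected genes, 34 to 35 genes varying beyond counting noise and 0 to 2 genes on the fibroblast score. It gave 0 to 0 channel genes on the neuron and glial lineage scores. On the neuron score each such fit called 0 genes in all, so its 0 channel genes say nothing about stability. On the glial lineage score the fit without replicate 1 called 447 of all genes and the others 0. A threshold of 10 counts in place of 1 CPM gave 37 detected genes, and 1 CPM in 3 libraries gave 36. Directions turned for Kcnip3 minus Kcnip4 (-0.92) without length scaling, and for the fibroblast slope of Kcnip2 (-0.096) without replicates 1 and 5. A pseudocount of 1 kept the sign of all 9 pair differences and drew them toward 0, for Kcnd2 minus Kcnd3 from -4.37 to -1.61. With 5 libraries the sign-flip test cannot go below 0.0625, so no pair was retested. Samples could not be paired between conditions because all belong to a single group; only genes were compared within each library. At this depth a level under 3 counts, 0.131 to 0.149 CPM, was not told apart from 0.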
